A study of Mus musculus with 4 samples.

Results

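Bone marrow of mice treated with Astragalus membranaceus was set against bone marrow of control mice, 1 Affymetrix array each, out of 4 arrays in the series. Astragalus membranaceus, called astragalus below, is a legume whose dried root is used in Chinese medicine. The other 2 arrays are of cisplatin (a DNA-crosslinking platinum compound that harms blood-forming cells) and of electro-acupuncture (needling with an electric current), and their levels are given beside the astragalus and control values. Per the labels' protocols, marrow was spun out of tibias with cut ends after 2 weeks of treatment, and 6 ug of RNA went into the biotin-labelled cRNA. The design text of the series speaks of 6 mixed marrow samples, which does not state outright how many mice stand behind each array. The sources used here give no strain, age or dose, nor is it stated whether the astragalus mice or the electro-acupuncture mice also received cisplatin. A group is therefore 1 array of a pool, no difference below has a replicate check, no test was run, and genes are sorted by size of difference alone.

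Genes were taken from transcript clusters (the probe groups that stand for a gene) that carry 1 gene symbol, with the cluster of highest mean for each gene. The filter was a 4-array mean of at least 5.235 log2 units, the middle of all cluster means, and 17208 of 30702 named genes met it. Of these, 35 genes stood at the ceiling of the scale, 19.93, on the astragalus or the control array and were left out. This left 17173 genes, of which 11226 are protein-coding. Every difference is astragalus minus control on the log2 scale, so that 1 is a 2-fold difference.

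Marrow makes neutrophils, red cells, platelets and B cells side by side. Neutrophil precursors fill their primary (azurophil) granules with proteases and myeloperoxidase at the promyelocyte stage, and later stages make the secondary and tertiary granule proteins. Megakaryocytes shed platelets and load them with chemokines and adhesion proteins. Pro-B and pre-B cells grow on interleukin-7 beside stromal cells that secrete Cxcl12. All of these cells contribute RNA to a marrow pool, and fewer cells of a type and less RNA per cell cannot be told apart in these arrays.

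The stefin A genes of chromosome 16 gave the largest differences among protein-coding genes. They encode small inhibitors of cathepsins, a class of cysteine proteases, and are abundant in mouse neutrophils. Their promoters are shown because the members were higher in astragalus marrow as a block, and because related copies bear on what an array can tell apart. Each sequence runs from 250 bases before to 50 bases after the gene start and comes from RefSeq on GRCm38.p6. The capitals mark the longest run of bases shared by 8 stefin promoters. The Stfa1 promoter is chr16:36276898-36277197 on the plus strand, Stfa2 is chr16:36408314-36408613 on the minus strand, Stfa2l1 is chr16:36156561-36156860 on the plus strand and Stfa3 is chr16:36455343-36455642 on the minus strand.
Stfa1: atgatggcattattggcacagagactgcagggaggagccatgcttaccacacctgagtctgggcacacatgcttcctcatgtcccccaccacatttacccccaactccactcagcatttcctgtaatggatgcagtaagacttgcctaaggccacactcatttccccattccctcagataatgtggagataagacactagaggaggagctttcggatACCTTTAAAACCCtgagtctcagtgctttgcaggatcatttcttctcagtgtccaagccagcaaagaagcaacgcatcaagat
Stfa2: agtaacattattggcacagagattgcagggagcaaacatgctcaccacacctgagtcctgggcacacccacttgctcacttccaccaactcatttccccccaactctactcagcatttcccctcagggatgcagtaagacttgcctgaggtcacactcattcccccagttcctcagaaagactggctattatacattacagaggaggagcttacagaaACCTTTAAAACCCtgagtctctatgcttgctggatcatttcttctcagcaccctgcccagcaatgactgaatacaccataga
Stfa2l1: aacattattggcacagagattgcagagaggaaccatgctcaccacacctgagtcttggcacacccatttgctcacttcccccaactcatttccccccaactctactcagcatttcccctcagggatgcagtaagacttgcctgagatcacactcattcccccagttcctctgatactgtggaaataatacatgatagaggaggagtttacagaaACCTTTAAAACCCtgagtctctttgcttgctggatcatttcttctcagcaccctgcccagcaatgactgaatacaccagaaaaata
Stfa3: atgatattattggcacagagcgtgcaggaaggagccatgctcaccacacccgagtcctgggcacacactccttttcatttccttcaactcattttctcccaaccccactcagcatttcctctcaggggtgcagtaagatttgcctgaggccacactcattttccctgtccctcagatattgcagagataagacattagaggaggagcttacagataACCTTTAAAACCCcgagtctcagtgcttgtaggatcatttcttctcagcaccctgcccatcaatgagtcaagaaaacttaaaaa
The capital run of 13 bases, acctttaaaaccc, begins 33 bases before the gene start in Stfa1, 32 in Stfa2, 36 in Stfa2l1 and 34 in Stfa3. Searched on both strands, it was found in 9 of 32851 RefSeq promoters of the same length, or 0.0274%, and 8 of these 9 genes belong to the stefin cluster. The 4 promoters printed were 79.2% to 90.5% identical to each other in pairs. The promoter of Csta2 was 46.5% to 50.7% identical to the others and lacks the run. The C/EBP core TTGCNNAA (both strands, N any base; C/EBP factors drive granulocyte genes) occurred in 4 of 9 stefin cluster promoters, against 10.8% of all promoters. Among the promoters printed, only that of Stfa1 holds it. The stefin promoters are related copies, so their matches are not separate occurrences. These matches describe letters and were not tied to any factor's binding.

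Before single genes are taken up, 3 features of the arrays bear on every value. Among the 11226 protein-coding genes, 461 (4.11%) differed at least 2-fold, 427 (3.8%) being higher and 34 (0.303%) lower in astragalus marrow. Over all 17173 genes, 1516 (8.83%) differed at least 2-fold, with 1055 (6.14%) higher and 461 (2.68%) lower. First, the astragalus array had the wider signal range: its 5th to 95th percentiles span 7.20 log2 units over all clusters, against 6.81 on the control array, with 6.83 on cisplatin and 6.80 on electro-acupuncture. The median difference went with level, at -0.04 for genes with mean levels under 6.63 and 0.72 for genes at 14 or above. A smooth trend of difference on level (loess) was therefore subtracted as a second reading, called trend removed below. Trend removed, 251 protein-coding genes (2.24%) still reached 2-fold, of which 191 (1.7%) were higher and 60 (0.534%) lower. Over all genes, 1117 (6.5%) did so, 520 (3.03%) higher and 597 (3.48%) lower. Of all genes at least 2-fold different, 69.6% were higher as deposited, against 46.6% with the trend removed, 54.4% with the astragalus array rescaled to the control range and 58.9% after quantile normalization. The direction split over all genes thus turns with the scaling, while among protein-coding genes at least 2-fold different 92.6% were higher as deposited, 76.1% with the trend removed and 85.3% rescaled. Rescaled, 266 protein-coding genes (2.37%) passed, 227 (2.02%) higher and 39 (0.347%) lower.

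The second feature is the control array's place among the 4. Control was the lowest of the 4 arrays in 412 of the 427 protein-coding genes that were at least 2-fold higher in astragalus marrow, while astragalus was the highest in 325. Over all protein-coding genes, control was the lowest in 33.5% and the highest in 22%, while astragalus was the highest in 37.7% and the lowest in 16.7%. In the 34 genes at least 2-fold lower, control was the highest of the 4 in 32 and astragalus the lowest in 16. The choice of genes favours such places, and in most of these genes the cisplatin and electro-acupuncture arrays also lay on the astragalus side of control. With 1 control array, a property of that pool or array and a property of the astragalus pool cannot be told apart.

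The last feature is that the brightest clusters repeat values. Of 288 genes with mean levels of 16 or more, 63 had the same value on at least 3 arrays, against 76 of 16647 genes below 14. The size of a difference is uncertain for such genes, and Pf4 and Actb below are among them. Near the 2-fold line the count is soft: 32 protein-coding genes lay on the line or at most 0.02 above it, and 42 lay 0.01 to 0.03 under it.

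**Figure D1:**
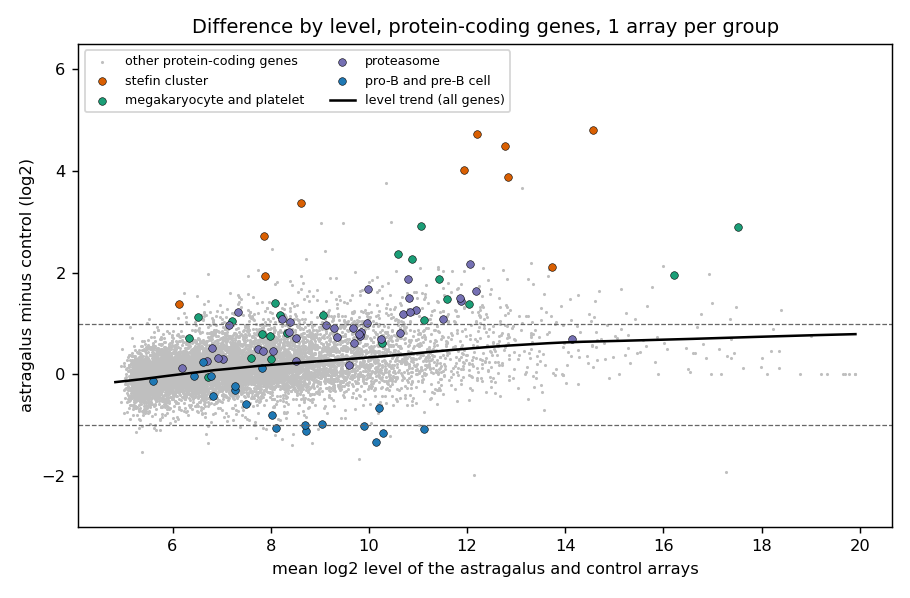
Difference between astragalus and control (y axis, log2) against the mean log2 level of both arrays (x axis), 1 point per protein-coding gene, with the dashed lines at 2-fold. The black line is the level trend over all genes, which climbs with level; the stefin genes stand far above it and most pro-B and pre-B genes below it.

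Muscle and cartilage RNA bear on how clean the marrow was. Of 25 skeletal muscle genes listed, 11 passed the level filter, with a median level of 5.64 in astragalus and 5.77 in control and a median difference of 0.00. The myosin heavy chains Myh1, Myh2 and Myh4 and titin (Ttn) were under 5.235 on all 4 arrays. Other listed muscle genes were above it on all 4. Tnnt1 stood at 7.25 in astragalus and 7.06 in control, and Cox6a2 at 6.39 and 6.74. Of 14 cartilage genes, 3 passed, among them Col10a1 at 6.19 in astragalus and 6.08 in control. Acan, the main cartilage proteoglycan, was under 5.235 on all 4 arrays. Coverage of the lists for the marrow's own cells varied, with 15 of 15 primary granule genes and 22 of 27 platelet genes compared. It was lower for hemoglobin and heme genes (19 of 29), T-cell genes (11 of 17) and stem and progenitor genes (15 of 25).

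The 10 stefin cluster genes compared were all at least 2-fold higher in astragalus marrow, with a median difference of 3.63, or 3.23 with the trend removed. Stfa2l1 stood at 16.96 in astragalus, 15.67 in cisplatin and 14.13 in electro-acupuncture, against 12.15 in control, a difference of 4.81 or 28.1-fold. Stfa1 stood at 14.56 in astragalus, 12.91 in cisplatin and 12.61 in electro-acupuncture, against 9.84 in control, which is 26.4-fold. For Stfa2 the levels were 15.01, 13.72, 12.23 and 10.52 in the same order of arrays, a 22.5-fold difference between astragalus and control. All 10 genes were highest in astragalus and lowest in control. Cstdc6 (16.3-fold), Stfa3 (14.7-fold), Cstdc5 (10.4-fold) and Csta3 (6.63-fold) followed. Of the remaining members, chosen after their values were seen, Cstdc4 differed by 2.11, Csta2 by 1.93 and Cstdc3 by 1.38. The genes are related copies, and how far the probes of one gene also read another's transcript was not tested, so the 10 values may not be 10 separate observations.

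**Figure D2:**
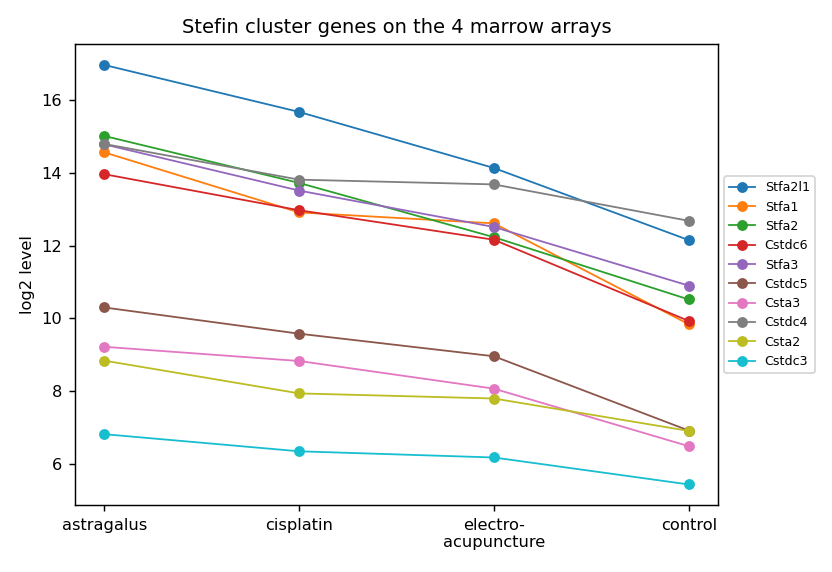
Log2 level (y axis) of the 10 stefin cluster genes on the astragalus, cisplatin, electro-acupuncture and control arrays (x axis), 1 array per group; lines join the values of a gene and imply no order. Every gene is highest in astragalus and lowest in control, with Stfa2l1 at 16.96 and 12.15.

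The secondary and tertiary granule list holds Stfa1, Stfa2, Stfa2l1 and Stfa3, and no separate count was made without them. Of 29 genes compared, 25 were higher in astragalus marrow. At least 2-fold higher were 10, against 3.8% of all protein-coding genes. The median difference was 0.86, but 0.39 with the trend removed, when 18 were above zero and 11 below, so no direction is given to the list. Astragalus was the highest of the 4 arrays in 24 of the 29. Csf3r, the receptor for the granulocyte growth factor G-CSF, differed by only -0.04.

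Primary granule and promyelocyte genes were higher in astragalus marrow in both readings. Of 15 compared, 13 were higher and 10 at least 2-fold higher, against 3.8% of all protein-coding genes; the median difference was 1.23, or 1.04 with the trend removed. Mpo, myeloperoxidase, stood at 13.75 in astragalus, 12.80 in cisplatin and 13.25 in electro-acupuncture, against 11.70 in control, a 4.14-fold difference. Ctsg, the granule protease cathepsin G, was 4.03-fold higher, at 10.72 in astragalus and 8.71 in control. Elane, neutrophil elastase, stood at 11.93 in astragalus and 10.34 in control, or 3.01-fold higher. Ms4a3, a membrane protein of granulocyte precursors, was 3.48-fold higher. The glutathione transferase Gstm1 led the list at 10.31 in astragalus and 7.88 in control, 5.39-fold higher. Hk3, a hexokinase, was the member farthest the other way at -0.26. Astragalus was the highest of the 4 arrays in 11 of the 15 and control the lowest in 12.

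Megakaryocyte and platelet genes were higher as well, in 21 of 22 compared, with 14 at least 2-fold higher. For this and the following protein-coding lists, the share at least 2-fold higher over all protein-coding genes is 3.8%. With the trend removed it is 1.7%. As deposited the share differed with level: 15 of 4985 protein-coding genes with mean levels under 6.63, and 58 of 203 at 12 to 14. The platelet list's median difference was 1.15, or 0.92 with the trend removed, when 9 of its genes were at least 2-fold higher. Ppbp, the platelet chemokine precursor, stood at 18.96 in astragalus, 18.63 in cisplatin and 19.04 in electro-acupuncture, against 16.06 in control. Thbs1, the adhesion protein thrombospondin-1, stood at 12.53, 12.70 and 12.80 on the same 3 arrays, against 9.61 in control. For both genes the 3 treated pools lie close together and control lies apart, by 7.46-fold for Ppbp and 7.57-fold for Thbs1 against astragalus. Alox12, the platelet lipoxygenase, was 5.13-fold higher, and Gp5, a subunit of the receptor for von Willebrand factor, was 4.82-fold higher. Pf4, platelet factor 4, read 17.20 on all 3 treated arrays and 15.24 in control. Itga2b, the integrin that binds fibrinogen, differed by 0.31, and Nrgn, a calmodulin-binding protein, by -0.05. Control was the lowest of the 4 in 21 of the 22, while astragalus was the highest in 7. Tuba4a, a tubulin of platelets, and Myl9, a myosin light chain of platelets and smooth muscle, are on no list and were also among the 15 largest differences. Tuba4a stood at 14.95 in astragalus and 11.28 in control, or 12.7-fold higher, and Myl9 was 5.54-fold higher.

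Among the protein-coding lists, both B-lineage lists were lower in astragalus marrow, the 2 lists with that direction. Of 19 pro-B and pre-B genes compared, 17 were lower and 7 at least 2-fold lower, against 0.303% of all protein-coding genes. The median difference was -0.67, and -1.0 with the trend removed. Il7r, the interleukin-7 receptor on which mouse B-cell precursors depend, stood at 9.47 in astragalus, 8.76 in cisplatin and 9.05 in electro-acupuncture, against 10.81 in control, 2.53-fold lower. Blnk, an adaptor of the pre-B receptor, stood at 8.17 in astragalus and 9.28 in control, 2.16-fold lower. Cecr2, a chromatin protein, was 2.22-fold lower and Myb, a transcription factor of blood progenitors, 2.10-fold lower. Dntt, which adds bases at antigen receptor joints, went the other way by 0.24. Among these genes control was the highest of the 4 arrays in 15 and astragalus the lowest in 2. The EBF1 core CCCNNGGG (both strands) occurred in 1 of 17 promoters of these genes in the RefSeq table, against 13.7% of all promoters.

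Mature B-cell genes were lower in 18 of 18 compared, 3 of them at least 2-fold, with a median difference of -0.41, or -0.52 with the trend removed. Cd72, a B-cell receptor inhibitor, stood at 8.16 in astragalus, 8.11 in cisplatin and 7.87 in electro-acupuncture, against 9.52 in control, 2.57-fold lower. Ms4a1, which encodes CD20, stood at 7.06 in astragalus, 7.58 in cisplatin and 7.15 in electro-acupuncture, against 8.32 in control, 2.40-fold lower. Spib, a transcription factor of B cells and plasmacytoid dendritic cells, was 2.25-fold lower, and Tnfrsf13c, the receptor for the B-cell survival factor BAFF, 1.84-fold lower. The smallest shift was that of Ltb, a lymphotoxin subunit, at -0.07. The 15 protein-coding genes with the largest decreases held 5 members of the 2 B-lineage lists: Il7r, Cecr2, Cd72, Ms4a1 and Spib. Because the lists were chosen with earlier results of these data known, this overlap is not separate support. Plasma cell genes took no direction as a list, but Jchain, the joining chain of secreted antibody, stood at 8.51 in astragalus, 7.27 in cisplatin and 7.26 in electro-acupuncture, against 6.58 in control. Immunoglobulin heavy-chain V segments, which are near copies of each other, had 9 of 100 at least 2-fold higher and 1 lower, near the 6.14% and 2.68% of all genes. Among light-chain kappa V segments 17 of 65 were at least 2-fold higher and 1 lower. The largest, Ighv3-5, chosen after its values were seen, stood at 10.90 in astragalus, 6.69 in cisplatin and 6.32 in electro-acupuncture, against 5.10 in control.

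Stromal genes were higher as well. Of 17 niche stroma genes compared, 16 were higher and 9 at least 2-fold higher, with a median difference of 1.13, or 1.03 with the trend removed. Cxcl12, the chemokine that holds stem cells and B-cell precursors in marrow, stood at 12.95 in astragalus, 12.46 in cisplatin and 13.28 in electro-acupuncture, against 10.91 in control, 4.11-fold higher. Igfbp5, a binding protein for insulin-like growth factors, was 3.73-fold higher. The matrix proteoglycan Bgn was 2.89-fold higher and Angpt1, a ligand of the receptor Tek, 2.69-fold higher. Foxc1, a transcription factor of these stromal cells, stood at 5.47 in astragalus and 5.57 in control. Control was the lowest of the 4 in 16 of the 17.

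The osteoblast list took no direction, with 9 of 14 compared higher and a median of 0.16, yet it held large single differences. Bglap and Bglap2 encode osteocalcin, the hormone-like protein of bone matrix, and are near copies. Bglap2 stood at 12.23 in astragalus, 14.09 in cisplatin and 10.53 in electro-acupuncture, against 8.47 in control. Bglap stood at 11.95 in astragalus, 13.68 in cisplatin and 10.45 in electro-acupuncture, against 8.96 in control. Both were thus higher in astragalus than in control (13.5-fold and 7.94-fold) and higher still in cisplatin. Sparc, a matrix glycoprotein of bone, was 3.32-fold higher, and Col1a1, the main bone collagen, 1.89-fold higher. How much bone lining came out with each spun marrow was not measured, and its part in these values was not tested.

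Fat cell genes were higher in 12 of 13 compared, 5 of them at least 2-fold, with a median of 0.40, or 0.21 with the trend removed. Scd1, a fatty acid desaturase, stood at 12.09 in astragalus, 12.35 in cisplatin and 10.44 in electro-acupuncture, against 10 in control. Adipoq, the fat hormone adiponectin, was 2.95-fold higher, Car3, a carbonic anhydrase of fat and muscle, 3.05-fold and Fabp4, a fatty acid carrier, 2.46-fold. Retn, the hormone resistin, differed by -0.13. Endothelial genes were higher in 15 of 16, but none reached 2-fold and the median was 0.23, or 0.25 with the trend removed. The scavenger receptor Stab2 (0.84) and the clotting factor carrier Vwf (0.80) led, followed by Eng at 0.68 and the junction protein Cdh5 at 0.53, while Pecam1 differed by -0.04.

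**Figure D3:**
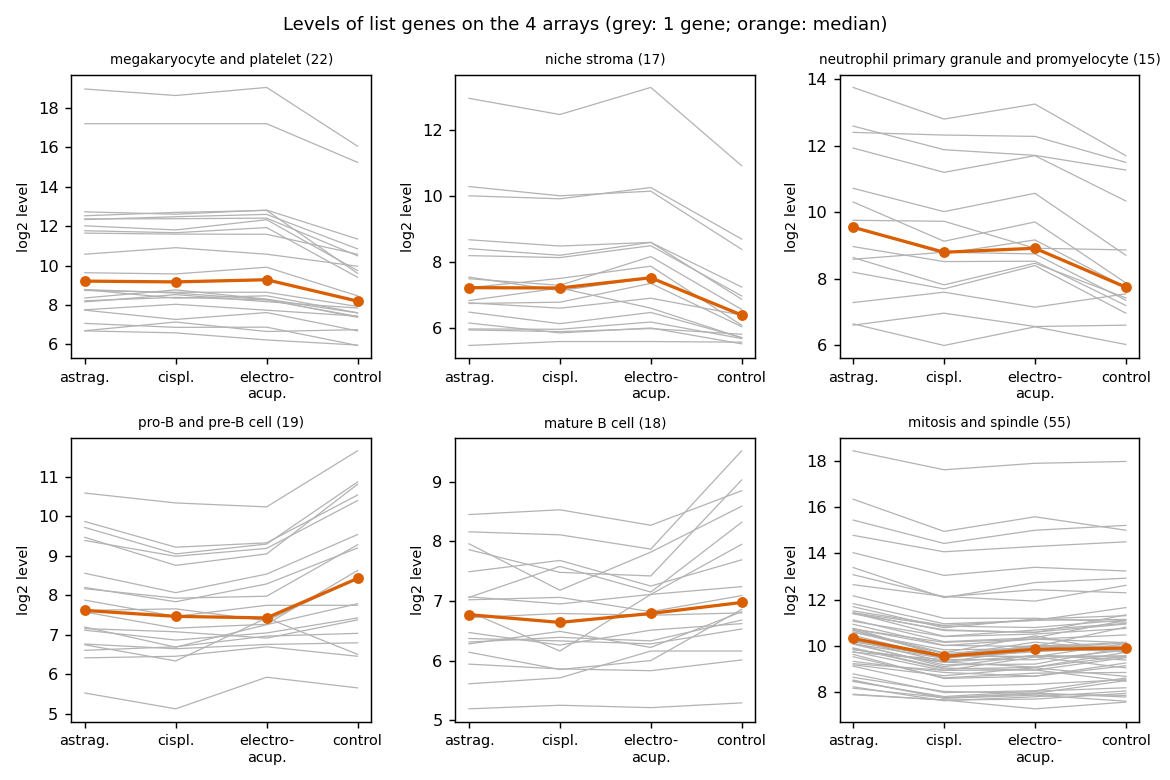
Log2 levels (y axis) of the genes of 6 lists on the astragalus, cisplatin, electro-acupuncture and control arrays (x axis), with a grey line per gene and the median of the genes in orange; lines imply no order. In platelet and niche stroma genes control lies under the 3 treated arrays, in both B-cell lists it lies over them, and in mitosis genes astragalus lies over the other 3.

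Genes of protein turnover and respiration were higher almost throughout. All 39 proteasome genes compared were higher, 15 at least 2-fold, or 7 with the trend removed. Their median was 0.84, or 0.60 with the trend removed. Psma5 and Psmb7, subunits of the proteolytic core, were 4.50-fold and 3.66-fold higher. Pomp, the core's assembly factor, was 3.18-fold higher and the core subunit Psma6 3.10-fold. The immunoproteasome subunit Psmb10 was the smallest at 0.12. All 7 genes of CCT, the chaperonin that folds actin and tubulin, were higher, 6 at least 2-fold, or 1 with the trend removed. The CCT median was 1.11, or 0.79 with the trend removed. Cct2 stood at 13.35 in astragalus, 12.59 in cisplatin and 13.09 in electro-acupuncture, against 11.50 in control. Cct7, Cct5 and Cct3 were 2.16-fold to 2.23-fold higher and Cct8 1.69-fold.

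Respiratory complex I genes were higher in 34 of 34, with 9 at least 2-fold, or 4 with the trend removed. The median was 0.70, or 0.48 with the trend removed. The lead came from Ndufa4 (3.81-fold; a subunit now placed in complex IV), Ndufb9 (3.48-fold), Ndufc2 (3.18-fold) and Ndufa9 (2.79-fold), and Ndufb2 differed by 0.03. In complexes II to V, 39 of 39 were higher, 11 at least 2-fold, or 5 with the trend removed. Their median was 0.82, or 0.41 with the trend removed. The cytochrome oxidase subunits Cox7a2 and Cox5b were 4.35-fold and 3.43-fold higher, and Atp5e, of ATP synthase, was 3.14-fold higher. Cox6b1 was 2.99-fold higher and Cox7c differed by 0.09. ND2, a complex I subunit encoded in mitochondrial DNA and on neither list, went the other way: it stood at 16.30 in astragalus, 19.79 in cisplatin and 17.71 in electro-acupuncture, against 18.23 in control.

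Cytosolic ribosomal protein genes were higher in 34 of 35, but 47 of the 82 listed were not compared, and the genes have many processed copies. Their median was 0.62, or 0.24 with the trend removed. Rps26 was 4.41-fold higher, Rpl27 3.92-fold, Fau 3.10-fold and Rpl8 3.07-fold, while Rpl7a read 18.10 in both astragalus and control. Mitochondrial ribosomal protein genes were higher in 64 of 71, with a median of 0.38, or 0.28 with the trend removed. Mrpl42 was 2.81-fold and Mrps18c 2.46-fold higher, Mrpl34 and Mrpl15 2.25-fold each, and Mrpl14 differed by -0.21. Ribosomal protein pseudogenes, read by probes that may also bind the parent mRNA, were at least 2-fold higher in 91 of 195, against 6.14% of all genes. With the trend removed, 39 were at least 2-fold higher, against 3.03% of all genes. Their median was 0.93, or 0.43 with the trend removed. Some copies carry the same values on every array, such as Rpl35a-ps3 and Rpl35a-ps4. Rpl10-ps1 stood at 18.20 in astragalus, 16.50 in cisplatin and 18.34 in electro-acupuncture, against 15.11 in control. Rpl10-ps6 (8.22-fold), Rpl14-ps1 (7.84-fold) and Rps13-ps4 (7.01-fold) followed among genes of other types, antigen receptor segments passed over.

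Antioxidant genes were higher in part. Of 24 compared from a list of NRF2 targets and metallothioneins, 19 were higher and 7 at least 2-fold, or 4 with the trend removed. The median was 0.58, or 0.37 with the trend removed. NRF2 is a transcription factor that answers oxidants, and metallothioneins bind zinc and copper. Mt2 stood at 11.94 in astragalus, 11.28 in cisplatin and 11.99 in electro-acupuncture, against 9.70 in control. Mt1 was 3.39-fold higher, and Sod1, the cytosolic superoxide dismutase, 3.20-fold higher. Gstm1, listed here too, was given with the granule genes, and Gsta4, another glutathione transferase, differed by -0.35. Glycolysis and hypoxia genes were higher in 21 of 26, with 2 at least 2-fold and a median of 0.43, or 0.27 with the trend removed. Pgk1, phosphoglycerate kinase, was 2.66-fold and Mxi1, a Myc antagonist, 2.33-fold higher. Tpi1 and Ldha, enzymes of glycolysis, were 1.69-fold higher each and Ankrd37, a hypoxia-induced gene, differed by -0.53. Gapdh, often used as a steady reference, stood at 11.34 in astragalus and 10.65 in control, a difference of 0.69 as deposited and 0.27 with the trend removed. Actb read 17.67 on the 3 treated arrays and 17.55 in control.

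Cholesterol synthesis and uptake genes were higher in 16 of 19 compared, with 1 at least 2-fold and a median of 0.30 in both readings. Nsdhl, a sterol dehydrogenase, was 2.22-fold higher. Fdps, Sqle and Hsd17b7, other enzymes of the pathway, differed by 0.61, 0.44 and 0.43, and Mvk, mevalonate kinase, by -0.37.

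Red cell and cell-cycle genes were mostly higher as deposited, but with the trend removed they no longer met the share of genes needed for a direction. Of 32 genes for the red cell's membrane and enzymes, 29 were higher, with a median of 0.52, or 0.17 with the trend removed, and astragalus was the highest of the 4 arrays in 29. Rhag, a membrane channel of red cells, stood at 15.04 in astragalus, 13.72 in cisplatin and 14.37 in electro-acupuncture, against 13.48 in control. Slc14a1, the red cell urea transporter, was higher by 1.25. Among hemoglobin and heme genes the median was 0.38, or 0.05 with the trend removed. Alas2, the first enzyme of heme synthesis in red cell precursors, differed by 0.75 as deposited and 0.09 with the trend removed. The erythroid transcription factors Gata1 and Klf1 differed by 0.59 and 0.53, and the erythropoietin receptor gene Epor read 8.51 in both astragalus and control.

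Mitosis and spindle genes were higher in 53 of 55, and astragalus was the highest of the 4 arrays in 53, yet the median of 0.37 became 0.02 with the trend removed. Ube2c, a ubiquitin enzyme that ends mitosis, stood at 16.34 in astragalus, 14.95 in cisplatin and 15.58 in electro-acupuncture, against 15 in control. Mki67, a marker of dividing cells, differed by 0.46 as deposited and by -0.29 with the trend removed, a turn of sign. Genes of G1/S and DNA replication had a median of 0.43, or 0.14 with the trend removed, led by the ribonucleotide reductase subunits Rrm2 at 1.12 and Rrm1 at 1.04. By the rule used, these 2 lists have no direction.

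**Figure D4:**
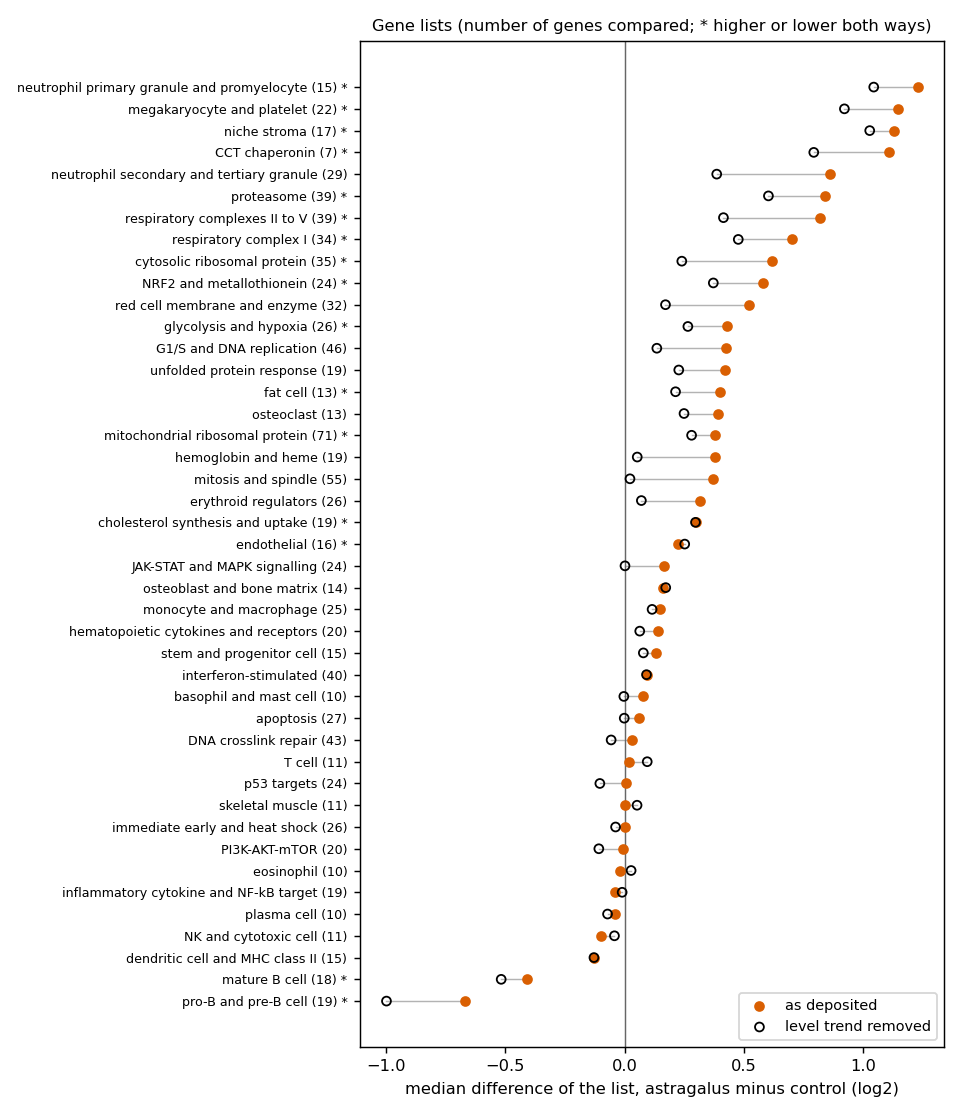
Median difference between astragalus and control (x axis, log2) of the 43 gene lists with at least 5 genes compared (y axis, number compared in brackets), as deposited (filled) and with the level trend removed (open). The starred lists, 14 higher and 2 lower, hold their direction in at least 75% of genes both ways; mitosis genes sit at 0.37 as deposited and 0.02 with the trend removed.

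The other lists took no direction. Targets of p53 split into 12 higher and 11 lower of 24, although Cdkn1a, the cell-cycle inhibitor p21, stood at 8.03 in astragalus, 8.76 in cisplatin and 8.27 in electro-acupuncture, against 6.64 in control. Ccng1, a cyclin under p53, differed by 1.54, and Mdm2, the ubiquitin ligase that restrains p53, by 0.09. Immediate early and heat shock genes split 12 against 12. Fos, an immediate early transcription factor, stood at 5.58 in astragalus, 8.95 in cisplatin and 6.23 in electro-acupuncture, against 6.43 in control, and was thus lowest in astragalus. T-cell genes had a median of 0.02 and NK genes of -0.10. Of stem and progenitor genes, Slamf1, a surface marker of stem cells that is also made by other blood cells, was higher by 1.48, while Kit differed by 0.08 and Cd34 by -0.21. Interferon-stimulated genes had a median of 0.10 with wide members: Igtp, a GTPase, was higher by 1.60 and Ifi209, a DNA sensor relative, was lower, at 8.97 in astragalus, 8.38 in cisplatin and 8.24 in electro-acupuncture, against 10.63 in control. Siglech, a marker of plasmacytoid dendritic cells, was 2.25-fold lower.

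Single genes outside the lists complete the largest differences. Ifitm2, an interferon-induced membrane protein, stood at 10.51 in astragalus, 9.58 in cisplatin and 10.24 in electro-acupuncture, against 7.54 in control. Apol11b, of the apolipoprotein L family, stood at 10.97 in astragalus, 13.37 in cisplatin and 11.17 in electro-acupuncture, against 7.99 in control. Among decreases, the surface peptidase Dpp4 was 2.43-fold lower, Niban3, a B-cell protein, 2.30-fold, Tmem181a 2.33-fold and Mcts2, a copy of a translation factor gene, 2.62-fold. Olfactory receptor genes also appear there, with Olfr1346 at -1.98, Olfr883 at -1.52 and Olfr512 at -1.35. Odorant and vomeronasal receptors are not known as marrow products, and their values show how genes without a known product here spread. Of 174 compared, all typed protein-coding, 5 (2.87%) were at least 2-fold lower and none was 2-fold higher. The share at least 2-fold lower is 0.303% of all protein-coding genes and 2.68% of all genes. The set leaned lower, with 132 lower and 39 higher and a median of -0.23, or -0.16 with the trend removed. Astragalus was the lowest of the 4 arrays in 92 of these receptors. From the 5th to the 95th percentile they ran from -0.81 to 0.27. As a set they are dim, with median levels of 5.39 in astragalus and 5.60 in control, although Olfr1346 stood at 11.15 and 13.13.

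Many small structured RNAs were lower in astragalus marrow, unlike most of the protein-coding genes at least 2-fold different. Of 59 genes typed as ribosomal RNA in the RefSeq table, 54 were at least 2-fold lower, against 2.68% of all genes. Their median level was 8.72 in astragalus, 11.40 in cisplatin and 8.86 in electro-acupuncture, against 11.56 in control. Many 5S ribosomal RNA copies, Rn5s and n-R5s100 among them, carry exactly these values, so the genes are not separate readings. Astragalus and electro-acupuncture lie together here and cisplatin lies with control. Of 584 small nuclear RNA genes, which serve splicing, 217 were at least 2-fold lower and 2 higher, against 2.68% and 6.14% of all genes. Their median difference was -0.78. Rnu5g, a U5 RNA of the spliceosome, stood at 10.37 in astragalus, 12.96 in cisplatin and 11.32 in electro-acupuncture, against 16.12 in control, 53.8-fold lower and the largest decrease among the genes named. Rnu1a1, a U1 RNA, was 10.3-fold lower, and Rmrp, the RNA of a processing ribonuclease, 8.22-fold lower. Among 548 small nucleolar RNA genes, which guide changes to ribosomal RNA, 50 were at least 2-fold lower and 9 higher. The shares over all genes are 2.68% lower and 6.14% higher. In either direction the small nucleolar share was 10.8%, against 8.83% of all genes. The 39 genes counted as C/D box split evenly, with 19 higher and 20 lower and a median of -0.01. One of them, Snord17, was 17.5-fold lower, at 11.63 in astragalus and 15.76 in control. Long noncoding RNAs had 16 of 1086 at least 2-fold different. Many small RNA genes are near copies, and some, such as Rnu1b1 and Rnu1b2, carry the same values, so counts overstate separate readings. How much small RNA each extract kept was not measured, and its part was not tested.

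**Figure D5:**
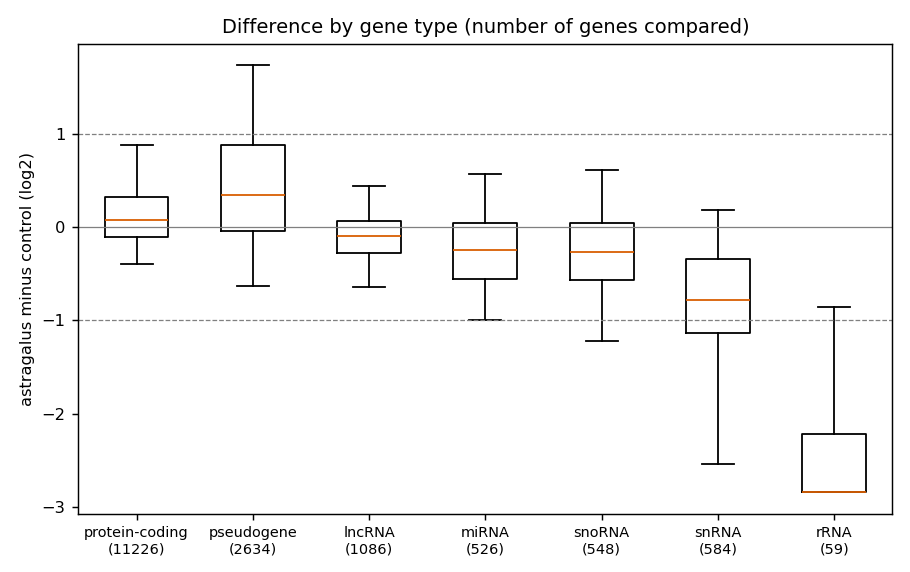
Difference between astragalus and control (y axis, log2) by gene type (x axis, number of genes compared), with the median in orange, boxes from the 25th to the 75th percentile and whiskers from the 5th to the 95th. Pseudogenes lie above 0 and small nuclear and ribosomal RNA genes below it, with medians of 0.34, -0.78 and -2.84.

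Of 526 miRNA genes compared, 27 were at least 2-fold lower and 7 higher, against 2.68% and 6.14% of all genes. In either direction 34 were at least 2-fold different, a share of 6.46% against 8.83% of all genes. A miRNA gene's cluster on this array reads the hairpin or its transcript, and not the mature miRNA alone. The mature sequences of 5 such genes, chosen after their values were seen because they are known in blood cells or carry a repeat family, are printed from RefSeq (GRCm38.p6) with the seed in capitals, bases 2 to 8 that pair with targets.
miR-15a-5p: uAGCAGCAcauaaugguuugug
miR-103-3p: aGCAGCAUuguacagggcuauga
miR-142a-5p: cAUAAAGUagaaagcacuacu
miR-142a-3p: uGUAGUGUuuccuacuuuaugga
miR-451b: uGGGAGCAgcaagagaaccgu
miR-467h: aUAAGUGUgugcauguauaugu
The seeds of the miR-15a 5p arm and the Mir103-2 3p arm hold the same 6 letters, GCAGCA, offset by 1 position, and their genes differed in opposite directions. Mir15a stood at 11.12 in astragalus, 11.00 in cisplatin and 10.33 in electro-acupuncture, against 12.76 in control, 3.12-fold lower. Mir103-2 stood at 9.11 in astragalus, 8.09 in cisplatin and 8.10 in electro-acupuncture, against 7.41 in control, 3.25-fold higher. Mir142, whose hairpin gives both miR-142a arms and is made across blood cells, stood at 6.16 in astragalus, 7.53 in cisplatin and 7.47 in electro-acupuncture, against 7.18 in control. Mir451b, antisense to the red cell miRNA gene Mir451a, was 2.01-fold higher, at 6.87 in astragalus and 5.86 in control. Mir467h, of the repeated Mir466, Mir467 and Mir669 families, stood at 14.02 in astragalus, 14.66 in cisplatin and 16.03 in electro-acupuncture, against 15.56 in control. In these families 64 of 65 genes were lower, 8 of them at least 2-fold, against 2.68% of all genes. Many members carry the same values on every array, such as Mir669a-4 and Mir669a-5, so the 65 are not separate readings.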

How the data were processed

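The deposited log2 values, 1 per transcript cluster and array, were made by the authors with Affymetrix Expression Console, per the submitters' processing notes. No source used here gives its version or summary method. A range of 2.70 to 19.93 fits a log2 scale. Of 65956 clusters, 31258 carry 1 gene symbol in the platform's annotation, 1492 carry several and name no gene, and 33206 are unnamed here. Symbols and gene types come from the RefSeq table of GRCm38.p6, which altered 1789 symbols. Several such clusters were found for 441 genes.

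The trend was fitted with loess (statsmodels 0.14.6, span 0.3, 3 iterations) on Python 3.11.15, after a test on simulated data. A list is called higher or lower where at least 5 members were compared and at least 75% lie on that side of the median of all genes in both readings. The 44 gene lists and the genes compared were chosen with earlier results of these data known. Genes named are the 15 largest protein-coding differences each way (at least 2-fold as deposited and 1.5-fold with the trend removed), the 4 largest each way among other types (unnamed gene models and antigen receptor segments passed over), the 4 leading members and 1 opposite member of each list with a direction, up to 2 of other lists, and a fixed set of markers. For arrays without replicates, their number limits the precision. Other settings tried were quantile normalization, rescaling, other filters, the mean over clusters, a floor on low values and other thresholds.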

Additional observations from a re-analysis of the deposited data

How the results depend on the processing

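Under the 7 alternatives to scaling, filter and cluster choice, the medians of the 16 lists with a direction and the differences of the named genes at least 2-fold different kept their sign. Mki67, Actb, Mdm2, Cox7c and Ndufb2, all under 2-fold, turned negative under at least 1. The count of genes at least 2-fold higher in astragalus marrow, 1055 as deposited, was 520 with the level trend removed and 607 with the array rescaled. At 1.5-fold, 3627 genes differed, 2479 higher and 1148 lower. At 3-fold, 456 differed, 299 higher and 157 lower. Among protein-coding genes alone 461 differed, 427 higher and 34 lower. Of the 88 named genes at least 2-fold different, 7 fell under 2-fold with the trend removed, 5 when rescaled and 4 after quantile normalization. Among the lists with a direction, fat cell medians ran the widest over the alternatives, 0.21 to 1.22. No paired analysis was possible because each group has 1 array. Signal at the ceiling and repeated values at high levels limit what can be measured.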
